A study of Mus musculus with 30 samples.

Results

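The Dlk1-Meg3 locus is a cluster of imprinted genes on mouse chromosome 12, and 7 of its genes were followed here: Dlk1, Rtl1, Meg3, Rian, Mirg and the small nucleolar RNAs (snoRNAs) AF357359 and AF357426. They were taken from the deposited expression table by gene symbol, and the locus was chosen by a readout of these same data, namely that Meg3 and Rian were low in the Sp3-/- samples. Of the 7 genes, 6 had a row among the 14685 genes of the table. Mirg had none. The difference between Sp3-/- and WT at these genes is therefore described with its values and carries no test.

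The 30 samples were RNA-seq libraries of mouse E14 embryonic stem cells (ESC) and of 4 populations differentiated from them in culture. WT cells were compared with Sp1ΔDBD/ΔDBD cells, in which both copies of Sp1 lack the DNA-binding domain, and with Sp3-/- cells, which lack Sp3. Each of the 3 genotypes was sampled in 5 populations with 2 replicates: ESC, Flk1+ cells purified from embryoid bodies, the hemogenic endothelium stages HE1 (KIT+ CD41- Tie2+) and HE2 (KIT+ CD41+ Tie2+), and blood progenitors (KIT+ CD41+ Tie2-). HE1, HE2 and progenitors were sorted from the same kind of blast culture. No treatment or animal age applies to these cultured cells. The labels give 1 line name for each genotype, so genotype and the history of its cell line cannot be told apart. The ESC had been kept on embryonic fibroblast feeders and then passaged without them, and the time in embryoid body culture depended on the cell line.

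Imprinted genes are expressed from only the maternal or only the paternal chromosome. At this locus the paternal chromosome expresses the protein-coding genes Dlk1, a membrane protein related to Notch ligands, and Rtl1, a gene derived from a retrotransposon. The maternal chromosome expresses a chain of long non-coding RNAs in the opposite pattern: Meg3, the Rtl1 antisense transcript, Rian and Mirg, whose introns and exons hold many snoRNAs and miRNAs. A differentially methylated region between Dlk1 and Meg3 controls both sides. In cultured mouse pluripotent cells the locus is known for maternal transcripts that are active in some lines and silent in others. Sp1 and Sp3 are zinc finger factors that recognise the same GC and GT boxes.

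The populations were checked against the genes that define them. The summed level of 5 ESC genes (Pou5f1, Nanog, Sox2, Zfp42, Esrrb) was 1086 to 1331 FPKM in the 6 ESC samples and at most 97.6 FPKM in any other sample. In Flk1+ cells it was 41.3 and 31.9 FPKM in WT, 54.0 and 21.6 in Sp1ΔDBD/ΔDBD and 94.9 and 97.6 in Sp3-/-, above both other genotypes, and its part in the levels of the locus was not tested. The sum of 5 mesoderm genes (Kdr, T, Mesp1, Pdgfra, Etv2) was 318 to 594 FPKM in Flk1+ cells and overlapped that of HE1, at 213 to 362 FPKM. The sum of 4 genes listed for the HE stages (Kit, Tek, Cdh5, Pecam1) was highest in HE1, at 699 to 1085 FPKM. That of 5 progenitor genes (Itga2b, Runx1, Gata1, Spi1, Gfi1b) was highest in progenitors, at 208 to 331 FPKM. Some sums set Sp3-/- apart from WT. In Flk1+ cells the mesoderm sum was 339 and 318 FPKM in WT and 544 and 594 in Sp3-/-. The progenitor sum was 40.7 and 51.7 FPKM in WT HE1 and 95.5 and 92.1 in Sp3-/- HE1. In progenitors it was 278 and 326 FPKM in WT and 214 and 240 in Sp3-/-. The HE sum in HE2 was 489 and 559 FPKM in WT and 352 and 351 in Sp3-/-. The part of these differences in the locus levels was not tested. The targeted genes were checked against the labels. Sp3 stood at 25.9 to 58.1 FPKM in the WT samples and at 3.38 to 7.79 FPKM in the Sp3-/- samples. Sp1 stood at 24.9 to 52.4 FPKM in WT and at 14.8 to 40.5 FPKM in Sp1ΔDBD/ΔDBD, where the shortened transcript is still made, so its level is no check of that genotype. All values are FPKM, that is, fragments scaled to gene length and library size, and were quantile normalised by the authors. Without read counts in the table, the depth is unknown. The median gene of a sample stood at 7.19 FPKM, and the lowest value a sample holds, between 0 and 0.0234 FPKM, is written below as listed at 0.

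Meg3 is the first gene of the maternal chain and lies at chr12:109541001-109571726 on the plus strand (GRCm38, the same build as mm10). RefSeq gives Meg3 a pair of start sites. The promoters of both Meg3 starts and of Dlk1 are shown because the transcripts that follow Meg3 moved with it and Dlk1 did not. Each runs from 250 bases before to 50 bases after the annotated start, 5′ to 3′ on the plus strand, at chr12:109540746-109541045 for the first Meg3 start, chr12:109545148-109545447 for the second and chr12:109452573-109452872 for Dlk1. Capitals mark matches to 4 motifs searched on both strands: the GC box GGGCGG, the GT box GGGTGG, the cyclic AMP response element TGACGTCA and the TATA box TATAAA.
Meg3, first start: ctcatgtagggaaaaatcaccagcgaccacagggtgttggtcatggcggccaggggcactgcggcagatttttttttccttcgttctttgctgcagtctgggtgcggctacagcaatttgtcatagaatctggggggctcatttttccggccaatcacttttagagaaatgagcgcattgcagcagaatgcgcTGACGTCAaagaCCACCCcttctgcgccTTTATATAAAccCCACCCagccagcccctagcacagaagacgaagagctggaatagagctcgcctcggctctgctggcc
Meg3, second start: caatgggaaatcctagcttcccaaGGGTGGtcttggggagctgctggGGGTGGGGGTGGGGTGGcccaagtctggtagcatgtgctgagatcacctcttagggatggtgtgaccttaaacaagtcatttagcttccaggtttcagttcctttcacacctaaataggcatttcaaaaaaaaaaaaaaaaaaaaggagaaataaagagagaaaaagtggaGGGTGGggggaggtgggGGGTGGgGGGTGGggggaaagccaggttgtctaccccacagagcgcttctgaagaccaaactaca
Dlk1: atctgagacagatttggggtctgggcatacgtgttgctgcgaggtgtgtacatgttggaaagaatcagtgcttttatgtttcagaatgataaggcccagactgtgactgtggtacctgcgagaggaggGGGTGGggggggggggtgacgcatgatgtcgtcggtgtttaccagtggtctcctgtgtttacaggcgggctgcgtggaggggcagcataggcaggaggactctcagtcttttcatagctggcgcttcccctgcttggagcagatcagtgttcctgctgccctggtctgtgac

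The window of the first Meg3 start held 2 GT boxes, both on the minus strand, 1 cyclic AMP response element and 2 TATA boxes that overlap on opposite strands. The window of the second held 7 GT boxes, all on the plus strand and with the fourth overlapping the third by a base, and neither of the other motifs seen at the first. The Dlk1 window held 1 GT box. The RefSeq window of Rian held none of the 4 motifs, and no GC box was found at Dlk1, Rian or either Meg3 start. Of 32851 promoter windows of the same length, 35.7% held a GC box, 31.5% a GT box, 13.6% a TATA box and 1.79% the cyclic AMP response element, so the last is the least common of the motifs seen at Meg3. CpG numbered 13 at the first Meg3 start, 1 at the second and 0 at Rian, against a median of 7. These matches describe letters and not binding, which was not measured in these files.

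In WT cells Meg3 was highest in ESC and lowest in progenitors. Its level in the 2 WT replicates was 18.0 and 21.5 FPKM in ESC, 14.8 and 19.3 in Flk1+ cells, 11.7 and 8.0 in HE1, 2.70 and 1.66 in HE2, with 1.58 and 0.154 in progenitors. ESC and Flk1+ samples overlapped, whereas every later population lay below the one before it. In Sp1ΔDBD/ΔDBD cells the values were 22.2 and 20.6 FPKM in ESC, 22 and 24.1 in Flk1+ cells, 11.3 and 3.59 in HE1, 3.47 and 0.465 in HE2, with 0.617 and 0.139 in progenitors. The Sp1 mutant thus fell from ESC to progenitors as WT did. Its samples overlapped WT in each population except Flk1+ cells, where both lay above both WT samples.

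In Sp3-/- cells Meg3 was low from the start. Its level was 0.306 and 0.659 FPKM in ESC, 0.531 and 0.843 in Flk1+ cells, 0.163 and 0.135 in HE1 and 0.0988 and 0.168 in HE2. In progenitors 1 replicate was listed at 0 and the other held 0.0954 FPKM. Both Sp3-/- samples lay below both WT samples and below both Sp1ΔDBD/ΔDBD samples in all 5 populations. The ratio of the WT mean to the Sp3-/- mean was 41.0 in ESC, 24.8 in Flk1+ cells, 66.0 in HE1 and 16.3 in HE2, and without Sp3-/- replicate 2 that of ESC was 64.6. In ESC, Flk1+ cells and HE1, Meg3 was number 4 from the bottom when the 14525 genes above 1 FPKM in at least 1 sample were ordered by the log2 ratio of Sp3-/- to WT means.

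**Figure D1:**
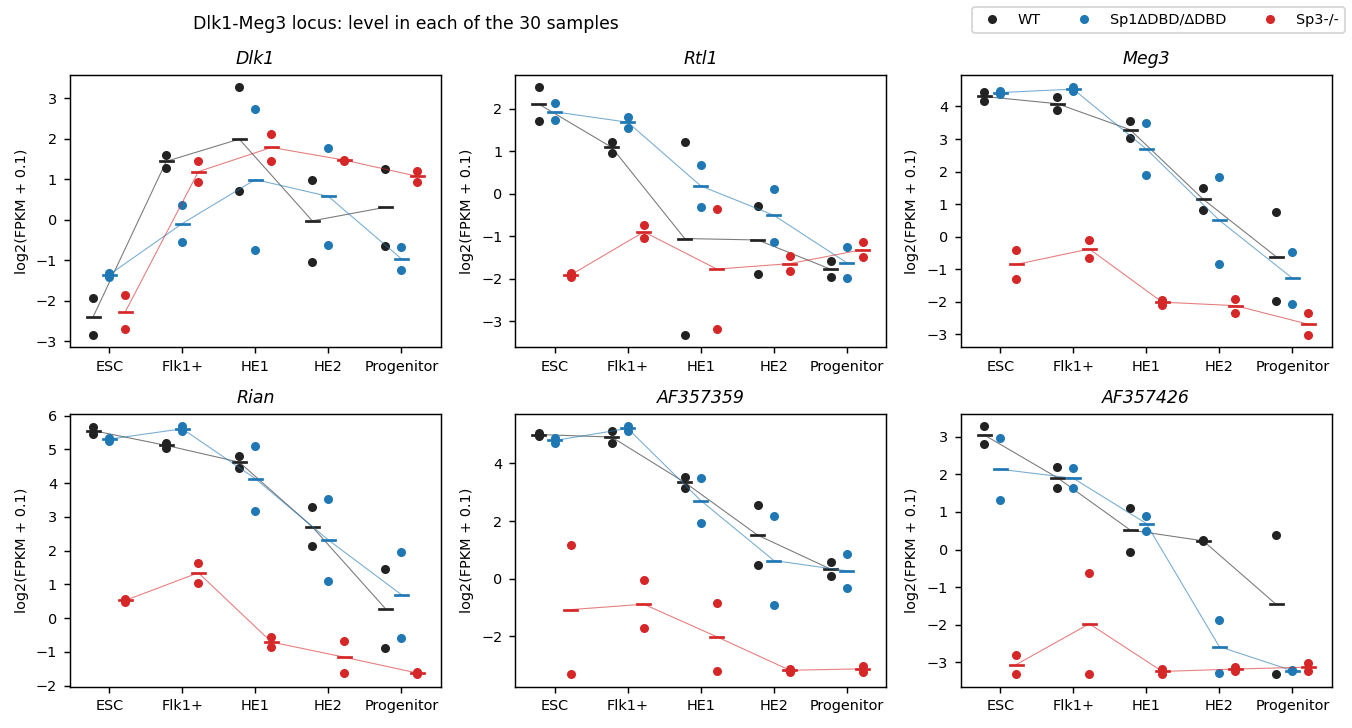
Level of each locus gene as log2(FPKM + 0.1) in every sample, by population and genotype. Points are samples, 2 per group, short bars are group means of the log2 values and thin lines join the means. Meg3, Rian, AF357359 and AF357426 run high to low from ESC to progenitors in WT and Sp1ΔDBD/ΔDBD and lie low in Sp3-/- ESC, where Meg3 held 0.306 and 0.659 FPKM, while Dlk1 runs upward from ESC in Sp3-/- as in WT.

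Rian, the next long non-coding RNA of the chain and a host of snoRNAs, lies at chr12:109603940-109661716 on the plus strand and was the most abundant of the 6 genes in WT ESC. Its WT replicates held 43.9 and 50.4 FPKM in ESC, 32.9 and 36.6 in Flk1+ cells, 27.6 and 21.8 in HE1, 9.66 and 4.27 in HE2, with 2.66 and 0.438 in progenitors. In Sp1ΔDBD/ΔDBD cells they held 38.3 and 40.8, 51.5 and 46.3, 34.4 and 8.88, 11.5 and 2.04, and 3.81 and 0.572 FPKM in the same order. Each WT population lay below the one before it without overlap.

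In Sp3-/- cells Rian held 1.29 and 1.39 FPKM in ESC, 1.97 and 3.02 in Flk1+ cells, 0.578 and 0.454 in HE1, 0.222 and 0.526 in HE2, with 0.232 and 0.215 in progenitors. The Sp3-/- samples lay below both other genotypes in all 5 populations, and the ratio of WT to Sp3-/- means was 35.2 in ESC, 13.9 in Flk1+ cells, 47.9 in HE1, 18.6 in HE2 and 6.93 in progenitors. Without WT replicate 1 the ratio was 11.4 in HE2 and 1.96 in progenitors, without WT replicate 2 it was 11.9 in progenitors, and without Sp3-/- replicate 2 it was 31.4 in HE2. Unlike the snoRNAs, Rian stayed above the listed 0 in all 10 Sp3-/- samples.

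AF357359 and AF357426 are C/D box snoRNAs, a class that guides methylation of other RNAs, and both lie inside Rian. AF357359 is shown because its 30 annotated bases, at chr12:109650709-109650738 and written on the plus strand as in Rian, sit inside an exon of 4 of the 20 Rian transcripts in GENCODE M21, so its reads cannot be told apart from those of its host.
AF357359: atcatgacgacaaatttaattctgagatca
AF357426 lies at chr12:109642838-109642904, in an intron of Rian.

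AF357359 held 30.8 and 33.2 FPKM in WT ESC, 25.8 and 34.9 in Flk1+ cells, 11.5 and 8.75 in HE1, 5.75 and 1.28 in HE2, with 0.966 and 1.38 in progenitors. In Sp1ΔDBD/ΔDBD cells it held 29.6 and 25.9, 39.0 and 35, 11.3 and 3.67, 4.36 and 0.436, and 1.71 and 0.702 FPKM. In Sp3-/- ESC 1 replicate was listed at 0 and the other held 2.15 FPKM, and Flk1+ cells held 0.206 and 0.857 FPKM. From HE1 on, 5 of the 6 Sp3-/- samples were listed at 0, the exception being HE1 replicate 1 at 0.456 FPKM.

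AF357426 held 9.61 and 6.96 FPKM in WT ESC, 3.02 and 4.44 in Flk1+ cells, 0.855 and 2.05 in HE1, 1.08 and 1.06 in HE2, with 1.21 and a listed 0 in progenitors. In Sp1ΔDBD/ΔDBD cells it held 2.38 and 7.68 FPKM in ESC, 4.37 and 3.0 in Flk1+ cells and 1.29 and 1.77 in HE1. Its Sp1ΔDBD/ΔDBD HE2 samples held 0.172 FPKM and a listed 0, and both progenitor samples were listed at 0. In Sp3-/- cells it exceeded the listed 0 in only 2 of 10 samples, at 0.0435 FPKM in ESC and 0.546 FPKM in Flk1+ cells. In progenitors the 3 genotypes overlapped.

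A further 5 snoRNAs within Rian had rows in the table (AF357425, DQ267100, DQ267101, AF357355 and DQ267102). They are no members and are described without a test. In ESC their WT means were 2.24 to 8.35 FPKM and both Sp3-/- samples of each lay below both WT samples, at a mean of at most 0.354 FPKM. DQ267101 was listed at 0 in both Sp3-/- ESC samples. Over the 30 samples, 4 of these 5 were also the genes outside the member list whose log2(FPKM + 0.1) was most like that of Meg3, with Pearson r of 0.95 for DQ267102, 0.93 for AF357425, 0.91 for DQ267100 and 0.87 for DQ267101. Within the members, r with Meg3 over the same 30 samples was 0.99 for Rian, 0.95 for AF357359, 0.92 for AF357426 and 0.79 for Rtl1. These samples share their cultures, normalisation and, for the snoRNAs, the host transcript. They also include the low Sp3-/- values of Meg3 and Rian that chose the locus. Over the 20 WT and Sp1ΔDBD/ΔDBD samples r with Meg3 was 0.98 for Rian, 0.95 for AF357359, 0.90 for AF357426 and 0.79 for Rtl1. Over the 10 Sp3-/- samples it was 0.95, 0.75, 0.35 and 0.15 in the same order. For DQ267102, AF357425, DQ267100 and DQ267101 it was 0.72, 0.52, 0.74 and -0.77 in Sp3-/-. The most similar gene outside the locus was Rtn4, a reticulon of the endoplasmic reticulum, with r = 0.86 and a much narrower range, 46.7 to 75.8 FPKM in WT and 24.0 to 51.9 FPKM in Sp3-/-.

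Rtl1 is the paternal gene of the group that lies on the minus strand, at chr12:109589193-109600330 between Meg3 and Rian. Its interval also holds 6 miRNA hairpins on the plus strand, part of the maternal antisense transcript, and 1 hairpin on the strand of Rtl1. The library kit kept strand, but the alignment and assembly are described with default settings only, so Rtl1 values cannot be told apart from antisense reads. A mature miRNA of 5 of the 6 plus-strand hairpins is shown because each is read from the strand opposite to Rtl1. That of miR-432, also on the plus strand, is left out. The seed, bases 2 to 8, is in capitals, and no seed is shared among them. The miRNAs themselves were not measured by these libraries.
miR-431-5p: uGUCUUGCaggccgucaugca
miR-433-3p: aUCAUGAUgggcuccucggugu
miR-127-3p: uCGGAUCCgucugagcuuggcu
miR-434-3p: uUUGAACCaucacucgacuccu
miR-136-5p: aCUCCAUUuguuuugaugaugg

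The Rtl1 row held 3.16 and 5.59 FPKM in WT ESC, 1.84 and 2.23 in Flk1+ cells, 2.22 and a listed 0 in HE1, 0.716 and 0.172 in HE2, with 0.232 and 0.157 in progenitors. In Sp1ΔDBD/ΔDBD cells it held 3.19 and 4.28, 3.39 and 2.84, 1.49 and 0.708, 0.988 and 0.355, and 0.318 and 0.152 FPKM. Sp3-/- samples held 0.157 and 0.176 FPKM in ESC and 0.383 and 0.497 in Flk1+ cells, below both WT samples, with a ratio of WT to Sp3-/- means of 26.3 in ESC and 4.63 in Flk1+ cells. In HE1 they held 0.683 FPKM and a listed 0, in HE2 0.261 and 0.184, and in progenitors 0.358 and 0.254. In HE1 and HE2 the Sp3-/- samples overlapped WT and lay below both Sp1ΔDBD/ΔDBD samples. In progenitors they lay slightly above both WT samples and overlapped Sp1ΔDBD/ΔDBD. Although Rtl1 is annotated as paternally expressed, its row thus had the maternal transcripts' pattern in ESC and Flk1+ cells and not Dlk1's.

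Dlk1, at chr12:109452823-109463336 on the plus strand, was near 0 in ESC of every genotype and present after differentiation. WT replicates held 0.0394 and 0.161 FPKM in ESC, 2.95 and 2.34 in Flk1+ cells, 9.65 and 1.53 in HE1, 1.89 and 0.386 in HE2, with 2.31 and 0.542 in progenitors. Sp1ΔDBD/ΔDBD replicates held 0.280 and 0.305, 1.19 and 0.585, 6.56 and 0.499, 3.31 and 0.557, and 0.525 and 0.322 FPKM. Sp3-/- replicates held 0.177 and 0.0554, 2.65 and 1.81, 4.29 and 2.63, 2.71 and 2.67, and 2.23 and 1.81 FPKM. Sp3-/- and WT samples overlapped in ESC, Flk1+ cells, HE1 and progenitors. In HE2 both Sp3-/- samples lay above both WT samples, with a log2 ratio of means of 1.17. The 3 genes whose pattern over the 30 samples was most like that of Dlk1 were Adamts2 (r = 0.88), Smad6 (r = 0.83) and Rbms3 (r = 0.83).

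Read together by genotype, 5 of the 6 genes were more than 2-fold lower in Sp3-/- than in WT in ESC, 5 in Flk1+ cells, 5 in HE1, 4 in HE2 and 4 in progenitors, by the log2 ratio of group means with 0.1 FPKM added. Over all 14525 genes the share this far lower was 4.07% in ESC, 4.73% in Flk1+ cells, 6.42% in HE1, 6.42% in HE2 and 7.17% in progenitors. Since the locus was selected on this contrast, nothing is read from these counts. Dlk1 was the gene outside the count in all populations, joined by Rtl1 in HE2 and progenitors. In HE1 the count held Rtl1, whose Sp3-/- samples overlapped WT, and with 1 FPKM added it was 4. The progenitor count rested on WT replicate 1, and without that sample it was 1. Values along the chromosome are given in the plot of differences by distance from Meg3.

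**Figure D2:**
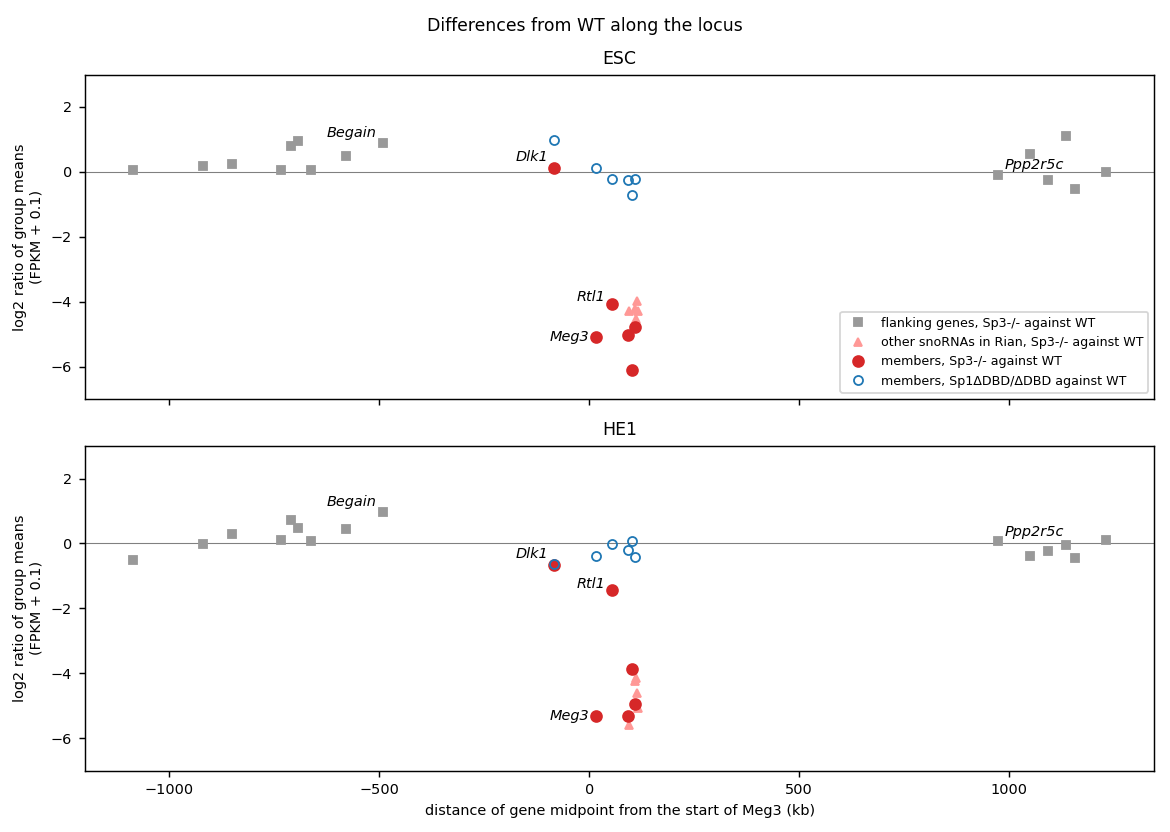
Log2 ratio of group means (FPKM + 0.1) against WT for genes within 1 Mb of the locus, by distance of the gene's midpoint from the start of Meg3, in ESC and HE1. Red circles are the 6 members and pink triangles the 5 other snoRNAs of Rian in Sp3-/-, grey squares the 15 flanking genes in Sp3-/-, and blue open circles the members in Sp1ΔDBD/ΔDBD. The low values lie between Meg3 and the end of Rian, at -5.09 for Meg3 in ESC, with Dlk1 at 0.11 in ESC. In HE1 both circles of Dlk1 overlap.

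The choice of the locus did not use the Sp1ΔDBD/ΔDBD samples, but the WT samples they are compared with took part in it. No member passed limma's test at an adjusted p of 0.05 in any of the 5 populations. Over all genes tested, 6.06% were called in ESC, 5.54% in Flk1+ cells, 10.0% in HE1, 9.67% in HE2 and 8.78% in progenitors. At an unadjusted p under 0.05 the member counts were 0 in ESC, Flk1+ cells, HE1 and progenitors and 1 in HE2. In Flk1+ cells both Sp1ΔDBD/ΔDBD samples of Meg3, Rian, Rtl1 and AF357359 lay above both WT samples. AF357426 overlapped WT there and Dlk1 lay below it. In ESC Rian and AF357359 lay below both WT samples, Dlk1 lay above them, and the other members overlapped WT. Meg3 differed from WT by a log2 of 0.12 in ESC (95% interval -1.52 to 1.76) and 0.45 in Flk1+ cells (-1.20 to 2.09). For Rian the log2 difference was -0.25 in ESC (-1.96 to 1.46) and 0.49 in Flk1+ cells (-1.22 to 2.20). These intervals leave room for differences of more than 2-fold in either direction, so the test does not show that the Sp1 mutant and WT were alike.

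The closest to a call was AF357426 in HE2, with a log2 difference of -2.82 ± 0.887 (SE) and an adjusted p of 0.0511 by limma. With the replicate number added to the fit as a block, AF357426 was called there. Without Sp1ΔDBD/ΔDBD HE2 replicate 1 the adjusted p was 0.0419, and in progenitors without WT replicate 2 the gene had an adjusted p of 0.0125. Its Sp1ΔDBD/ΔDBD values in both populations were listed at 0 or reached at most 0.172 FPKM. Rtl1 in HE1 was called higher (adjusted p 0.0212, limma) without WT HE1 replicate 1, which leaves the WT sample listed at 0. Dlk1 lay above WT in both Sp1ΔDBD/ΔDBD ESC samples and below it in both Flk1+ samples, with log2 differences of 1.04 and -1.54. The difference between these effects was -2.57 ± 1.40 (SE) and did not pass the test (limma adjusted p 0.441). No member had a called difference between its Sp1 effect in ESC and that in any later population.

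Across the differentiation of WT cells, Dlk1 was the only member called between successive populations in the main fit, which does not pair replicates. It rose from ESC to Flk1+ cells by a log2 of 3.84 ± 0.988 (SE, limma adjusted p 0.00299), in a step in which 52.2% of all genes were called. In the step from Flk1+ cells to HE1 (53.0% of all genes called), HE1 to HE2 (21.9%) and HE2 to progenitors (13.2%), 0 of the 6 members were called by limma. At an unadjusted p under 0.05 the member counts in the 4 steps were 1, 1, 2 and 2. Meg3 came to an adjusted p of 0.0589 from HE1 to HE2, with a log2 difference of -2.14, and Rian to 0.0566 from HE2 to progenitors, with -2.42. With the replicate number added to the fit as a block, Meg3 and Rian were called lower from HE1 to HE2, and Rian from HE2 to progenitors. Deviations of same-numbered WT samples in these populations were correlated (0.310 to 0.380), but the labels give no shared culture. Without WT progenitor replicate 1, Meg3, Rian and AF357426 were called lower in the last step, at log2 differences of -3.13, -3.60 and -3.54. Without WT HE1 replicate 1, Rtl1 was called lower from Flk1+ cells to HE1, at -4.41.

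Because the decline was spread over several steps, progenitors were also compared directly with ESC, a comparison added after the values were seen. The WT samples also took part in the choice of the locus. In WT all 6 members were called by limma, against 58.6% of all genes. Meg3 fell by 4.92 on the log2 scale (adjusted p 2.49e-05), and Rian fell by 5.27 (adjusted p 1.73e-05). AF357359 had a log2 difference of -4.67, AF357426 of -4.51 and Rtl1 of -3.88. Dlk1 rose by 2.70 (adjusted p 0.0247, limma), a call lost without WT ESC replicate 1 (adjusted p 0.137) or without WT progenitor replicate 1 (0.225), and also with 1 FPKM in place of 0.1 added before the logarithm (log2 difference 1.04, adjusted p 0.171).

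In Sp1ΔDBD/ΔDBD cells 5 of 6 members were called lower in progenitors than in ESC, against 57.0% of all genes called, with log2 differences of -5.70 for Meg3 and -4.61 for Rian. Dlk1 differed by 0.39 ± 0.988 (SE) and was not called (limma adjusted p 0.758). Its step from ESC to Flk1+ cells, tested in both mutants also after the values were seen, was 1.26 ± 0.988 (adjusted p 0.312), where 48.6% of all genes were called, and 0 of the 6 members were called by limma in that step, also at an unadjusted p under 0.05.

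In Sp3-/- cells 2 of 6 members were called from ESC to progenitors, against 55.0% of all genes. The locus was chosen because Meg3 and Rian were low in these samples, and this comparison too was added after the values were seen. The p-values in these samples are therefore no independent support. Dlk1 rose by 3.34 ± 0.988 (SE, limma adjusted p 0.00736) and Rian fell by 2.15 on the log2 scale (adjusted p 0.0313) from its already low level. Meg3 differed by -1.84 (adjusted p 0.0547). Dlk1 also rose from ESC to Flk1+ cells, by 3.46 ± 0.988 (limma adjusted p 0.00671), a step in which 48.8% of all genes were called. Without Sp3-/- ESC replicate 2, the adjusted p of Dlk1 was 0.0607 from ESC to progenitors and 0.0590 from ESC to Flk1+ cells. The call of Rian was lost without any 1 of the 4 samples, with an adjusted p of 0.0893 to 0.106. With 1 FPKM added, none of these 3 calls held, at limma adjusted p of 0.0639 and 0.0552 for Dlk1 and 0.202 for Rian.

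The replicates of HE1, HE2 and progenitors differed more than those of ESC and Flk1+ cells, and genes of another cell type moved with this. Of 7 fibroblast genes listed as feeder markers, 5 had a row (Col1a1, Col1a2, Col3a1, Thy1 and Postn). Their summed level in WT was 282 and 35.7 FPKM in HE1, 48.9 and 9.05 in HE2, with 55.2 and 16.1 in progenitors. In Sp1ΔDBD/ΔDBD it was 127 and 13.3, 45.7 and 4.45, and 13.8 and 3.67 FPKM. Replicate 1 was the higher in all 6 of these groups, and so it was for Dlk1, Meg3, Rian and Rtl1 in 6 of 6, for AF357359 in 5 and for AF357426 in 3. In Sp3-/- the sum was 27.7 and 19 FPKM in HE1, 19.6 and 15.7 in HE2, with 8.47 and 10.7 in progenitors, a narrower spread, and Dlk1 also spread less there. The part of these genes in the levels of the locus was not tested. In bulk samples, fewer cells of a type and less RNA per cell cannot be told apart.

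In ESC the same sum was 5.65 and 5.77 FPKM in WT, 12.7 and 15.6 in Sp1ΔDBD/ΔDBD and 4.31 and 10.3 in Sp3-/-. The WT and Sp3-/- samples overlapped in it. By gene, Thy1 was lower in Sp3-/- (1.39 to 1.47 FPKM) than in WT (2.58 to 3.22). Col1a2 was higher in Sp3-/- (1.66 to 4.54 FPKM) than in WT (1.18 to 1.60), and the others overlapped. The part of these genes in the Meg3 levels of ESC was not tested. None of the 5 genes was listed at 0 in ESC, and Postn was at most 0.595 FPKM in any ESC sample.

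**Figure D3:**
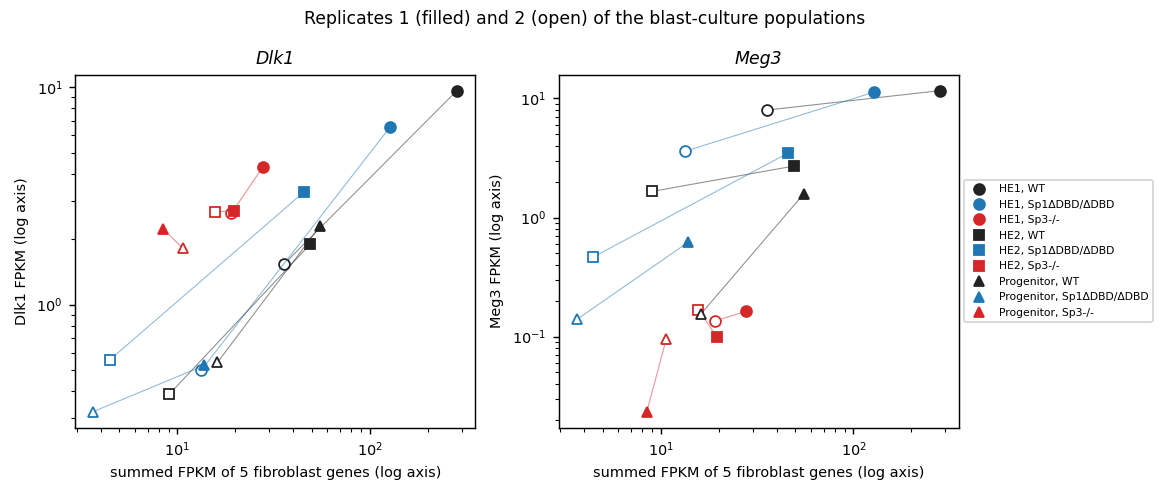
Level of Dlk1 and Meg3 (FPKM, log axes) against the summed FPKM of 5 fibroblast genes in HE1, HE2 and progenitors of each genotype. Filled symbols are replicate 1, open symbols replicate 2, and lines join the replicates of a group. Replicate 1 lies above and to the right of replicate 2 in all 6 WT and Sp1ΔDBD/ΔDBD groups, and Sp3-/- Meg3 lies at 0.168 FPKM or lower throughout.

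Genes flanking the locus were compared between Sp3-/- and WT. The nearest with a row were Begain, 384606 bases before the locus, and Ppp2r5c, 697660 bases after it. Nearer to the locus no gene was measured, so where the difference ends was not tested. Of 15 genes within 1 Mb on either side that had a row, 0 were called by limma in ESC, Flk1+ cells, HE1 and progenitors, and 1 was called in HE2. The share of all genes called in this contrast was 11.3% in ESC, 12.6% in Flk1+ cells, 10.9% in HE1, 13.8% in HE2 and 8.65% in progenitors. The median log2 difference of the 15 genes was 0.19 in ESC, beside -0.02 over all genes. Begain, the nearest measured gene before the locus and one encoding a synaptic scaffold-associated protein, was the one called. It held 0.153 and 0.413 FPKM in WT HE2 and 1.10 and 1.3 in Sp3-/- HE2, a log2 difference of 1.85 ± 0.414 (SE, limma adjusted p 0.00666). This call was lost with HE2 fitted alone, a fit that called only 13 of all 14525 genes. It was also lost without WT replicate 1 or Sp3-/- replicate 2 of HE2. Ppp2r5c, a phosphatase regulatory subunit and the nearest measured gene after the locus, held 51.2 and 50.8 FPKM in WT ESC and 46.9 and 48.3 in Sp3-/- ESC (log2 difference -0.10, limma adjusted p 0.618).

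Imprinted genes elsewhere in the genome were counted in the same contrast. Of 40 listed, 36 had a row. In ESC 9 of the 36 were called by limma, all lower in Sp3-/-. The share called was 25% in ESC beside 11.3% of all genes, 22.2% beside 12.6% in Flk1+ cells, 8.33% beside 10.9% in HE1, 16.7% beside 13.8% in HE2 and 5.56% beside 8.65% in progenitors. It was thus near or below that of all genes from HE1 on. In ESC the list's median log2 difference was -0.43 beside -0.02 over all genes. Grb10, which encodes an adaptor that restrains insulin signalling, had the largest fall, from a mean of 31.9 FPKM to 6.58 FPKM (log2 difference -2.27, adjusted p 4.90e-05). Leaving out any 1 of the 4 ESC samples lowered the count in the list, and it also lowered the count over all genes. Whether the list's share beside all genes changed was not tested.

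In Flk1+ cells 8 of the 36 were called, 7 lower and 1 higher, with Zim1, a zinc finger gene, falling most (14.4 to 4.17 FPKM, log2 difference -1.74, limma adjusted p 0.0469) and Magel2, a ubiquitin ligase regulator, rising (0.432 to 1.24 FPKM, 1.33, adjusted p 0.0118). Leaving out any 1 of the Flk1+ samples of WT or Sp3-/- lowered the count, in the list and over all genes, most in the list without WT replicate 2. In HE1 3 were called, all lower, led by the zinc finger factor Plagl1 (20.3 to 1.66 FPKM, -3.55, adjusted p 0.000420). In HE2 6 were called, 5 lower and 1 higher. Plagl1 fell most there (4.76 to 0.738 FPKM, -2.54, adjusted p 0.00445), and Phlda2, a growth-restraining gene of the placenta, was the one that rose, from 0.158 FPKM and a listed 0 in WT to 0.589 and 1.18 FPKM. Leaving out any 1 of the HE2 samples of WT or Sp3-/- lowered the count, both in the list and over all genes.

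In progenitors 2 were called, Mest lower and Usp29 higher, from 0.134 to 0.427 FPKM (1.14, limma adjusted p 0.0434). In ESC Usp29 had been called lower, from 0.977 to 0.407 FPKM (-1.08, limma adjusted p 0.0479), so its direction differed between populations at low levels. Without WT replicate 1 or either Sp3-/- replicate fewer were called in progenitors, in the list and over all genes. Mest, a paternally expressed gene encoding a hydrolase-like protein, was called lower in each of the 5 populations. Its WT replicates held 28.3 and 37.0 FPKM in ESC and its Sp3-/- replicates 7.52 and 8.60, and the log2 difference ran from -2.21 in HE2 to -1.53 in progenitors. By comparison, H19, a maternally expressed long non-coding RNA of another locus, stood at 4.73 and 1.72 FPKM in WT ESC and 2.59 and 3.25 in Sp3-/- ESC (log2 difference 0.02 ± 0.597, SE) and was named after its values were seen. With each population fitted alone the count was 0 in HE1, HE2 and progenitors and 3 in Flk1+ cells. Of all 14525 genes that fit called 1 in HE1, 13 in HE2, 15 in progenitors and 2089 in Flk1+ cells. In HE1, HE2 and progenitors the 0 therefore says nothing about the list.

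**Figure D4:**
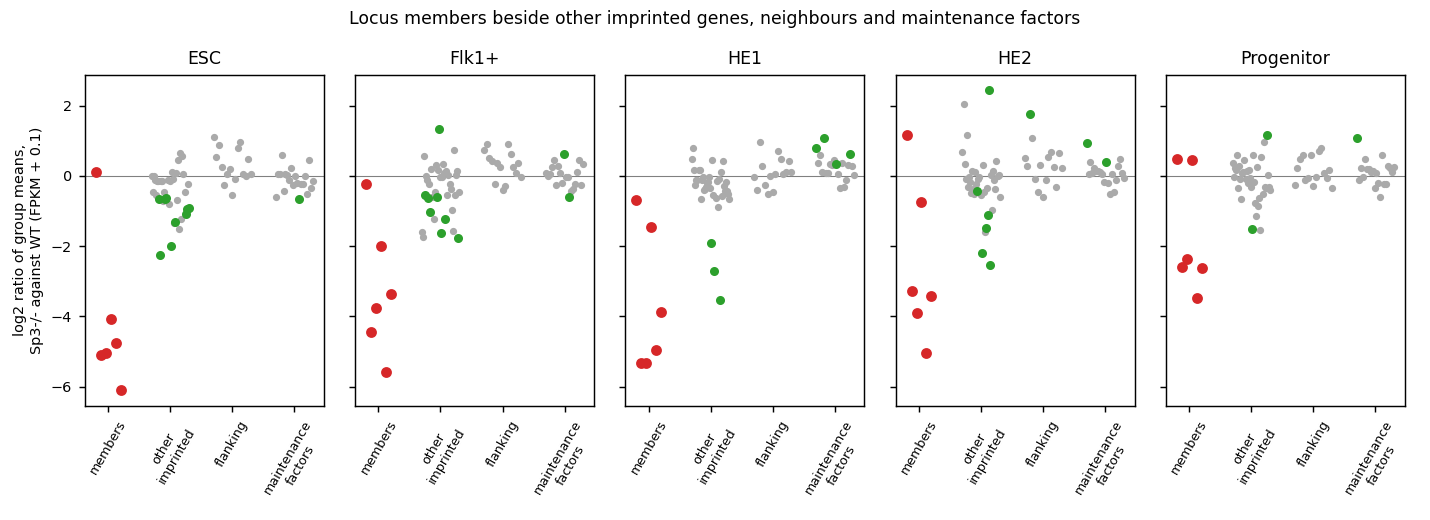
Log2 ratio of group means (FPKM + 0.1), Sp3-/- against WT, for the 6 members, 36 imprinted genes of other loci, 15 flanking genes and 20 imprint maintenance factors in each population. Each point is a gene, green points were called by limma, grey points were not, and the red members carry no test. In ESC 9 other imprinted genes were called, all lower.

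Of 20 factors known to keep imprints or to act on the locus, 1 was called in ESC by limma, 2 in Flk1+ cells, 4 in HE1, 2 in HE2 and 1 in progenitors. The share called was above that of all genes only in HE1, at 20% beside 10.9%, so the counts elsewhere are no result about the list. Suz12, a subunit of the Polycomb complex PRC2, was the one called in ESC, where it held 94.4 and 85.9 FPKM in WT and 57.2 and 57.2 in Sp3-/- (log2 difference -0.65 ± 0.180, SE, adjusted p 0.0241). It was also called lower in Flk1+ cells (-0.59, adjusted p 0.0383), where the other factor called was Jarid2, a PRC2 cofactor, which was higher (23.5 to 36.2 FPKM, 0.62, limma adjusted p 0.0171). Zfp57, which protects methylated imprints, stood at 83.7 and 143 FPKM in WT ESC and 105 and 99.7 in Sp3-/- ESC, and its partner Trim28 at 570 and 925 and at 526 in both Sp3-/- samples. Neither was called in any population, with log2 differences in ESC of -0.09 ± 0.240 and -0.46 ± 0.360 (SE). The 4 factors called in HE1 were all higher in Sp3-/-: Dnmt3b, Aff3, Uhrf1 and Setdb1. Aff3, a factor known to bind the control region between Dlk1 and Meg3, was called higher in HE1, HE2 and progenitors, by log2 differences of 0.78, 0.94 and 1.05. In ESC Aff3 held 3.54 and 2.47 FPKM in WT and 2.13 and 1.77 in Sp3-/- (log2 difference -0.58, not called). In Flk1+ cells its log2 difference was 0.09, also not called. The call of Suz12 in ESC was lost without WT replicate 1 and without either Sp3-/- replicate, and without 1 sample the list had 0 calls in Flk1+ cells and HE2 whichever sample was left out, and 1 or 2 in HE1 (2 without WT replicate 1, 1 without any other). Over all genes, too, each fit without 1 sample called fewer than the main fit. With each population fitted alone, 0 factors were called in ESC, HE1, HE2 and progenitors. Of all 14525 genes that fit called 611 in ESC, 1 in HE1, 13 in HE2 and 15 in progenitors. In HE1, HE2 and progenitors the 0 therefore says nothing about the list.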

How the data were processed

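RNA-seq libraries of 5 populations and 3 genotypes, 2 samples per group, were grouped by their labels. The authors trimmed the reads, aligned them to mm10 with HISAT2 2.1.0, assembled and quantified genes with StringTie 1.3.3, dropped genes that never exceeded 1 FPKM, and applied quantile normalisation. The deposited values are FPKM on a linear scale. The gene annotation is not given in the sources used here. Replicates are described as biological. Whether they came from separate thaws or clones is not given, so p-values measure the spread between these samples.

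From these values, log2(FPKM + 0.1) was fitted with limma 3.58.1 in R 4.3.3 over all 30 samples, 1 mean per group, for the 14525 genes whose highest value was still above 1 FPKM, with empirical Bayes moderation and Benjamini-Hochberg adjustment over all genes within each comparison (threshold 0.05). Fold changes are on this scale and understate the change of low genes. The fit was tested on simulated data. No exact permutation test was used, because 2 samples against 2 reach a two-sided p of 0.333 at best. Coordinates come from GENCODE M21 and, for AF357359 and AF357426, RefSeq (GRCm38.p6), which also gave the promoters, matched for 4 of the 7 members by symbol, and the miRNAs. The AF357359 bases were read from GENCODE Rian transcripts.

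The locus, its members, the gene lists and the comparisons were chosen with earlier results of these data known. Genes were named by a rule: the members, the 5 genes most like Meg3 and 3 most like Dlk1 by Pearson r, the nearest and every called flanking gene, per population the other imprinted gene with the largest called rise and fall, maintenance factors called in ESC, and Sp1 and Sp3. Mest in all populations, H19, Zfp57, Trim28 and the factors called after ESC were named after their values were seen. Alternatives varied the pseudocount, filter, samples fitted and replicate block, and left out each sample.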

Additional observations from a re-analysis of the deposited data

Results flagged for a closer look

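Rtl1 was marked because its Sp3-/- samples lay wholly on opposite sides of WT in different populations. Both were below both WT samples in ESC, with a log2 ratio of means of -4.07, and in Flk1+ cells, with -1.98, and both were above both WT samples in progenitors, with 0.46. The difference between populations was not tested, since the locus was chosen on this contrast. In progenitors the levels were 0.232 and 0.157 FPKM in WT and 0.358 and 0.254 FPKM in Sp3-/-, all far under the median gene of a sample, 7.19 FPKM.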

How the results depend on the processing

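With no filter on low values, no count of calls moved by over 1.5 times, and neither did a count of members with genes above 1 FPKM in at least 2 samples, a filter not run for the other lists. With a pseudocount of 1, members called were 2 from ESC to Flk1+ cells, 2 from Flk1+ cells to HE1 and 2 from HE1 to HE2 in WT, and 0 in Sp3-/- both from ESC to progenitors and from ESC to Flk1+ cells. The members more than 2-fold lower in Sp3-/- progenitors were then 2 (1 if all 4 pairs of samples had to be), flanking genes called in HE2 2 and other imprinted genes called in progenitors 1. With the populations compared fitted alone, members called from ESC to Flk1+ cells were 2 in WT, 1 in Sp1ΔDBD/ΔDBD and 3 in Sp3-/-. Calls in Sp3-/- were then 1 flanking gene in Flk1+ cells and 0 in HE2. For other imprinted genes they were 3 in Flk1+ cells and 0 in HE1, HE2 and progenitors. For maintenance factors they were 0 in ESC, HE1, HE2 and progenitors. Fewer samples set the spread in this fit. Of all 14525 genes it called 611 in ESC, 2089 in Flk1+ cells, 1 in HE1, 13 in HE2 and 15 in progenitors. The cause of the other changes was not tested.

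The samples share only a replicate number. Correlations of same-numbered deviations were 0.169 to 0.443 between WT and Sp1ΔDBD/ΔDBD and -0.0255 to 0.151 between WT and Sp3-/-. Among HE1, HE2 and progenitors they were 0.310 to 0.380 in WT, 0.347 to 0.543 in Sp1ΔDBD/ΔDBD and 0.0317 to 0.131 in Sp3-/-. With the replicate block, members called were 1 in Sp1ΔDBD/ΔDBD HE2 (AF357426), 2 in WT from HE1 to HE2 (Meg3, limma adjusted p 0.0194, and Rian, 0.0303) and 1 from HE2 to progenitors (Rian, 0.0122). Calls in Sp3-/- were then 1 flanking gene in Flk1+ cells, 5 other imprinted genes in HE1 and 4 in progenitors, and 3 maintenance factors in ESC and 1 in Flk1+ cells. The block moved no other count by over 1.5 times.

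Without 1 sample at a time, members called ranged from 0 to 1 in Sp1ΔDBD/ΔDBD HE1, HE2 and progenitors, 0 to 1 in WT from Flk1+ cells to HE1, 0 to 3 from HE2 to progenitors, and in Sp3-/- 0 to 2 from ESC to progenitors and 0 to 1 to Flk1+ cells. The members more than 2-fold lower in Sp3-/- progenitors ranged from 1 to 4. Flanking calls ranged from 0 to 3 in HE2 and 0 to 1 in progenitors, other imprinted calls from 3 to 5 in ESC, 1 to 5 in Flk1+ cells, 2 to 5 in HE2 and 1 to 2 in progenitors, and maintenance factor calls from 0 to 1 in ESC, 0 to 0 in Flk1+ cells, 1 to 2 in HE1, 0 to 0 in HE2 and 0 to 1 in progenitors. Signs turned for Rtl1 in Sp1ΔDBD/ΔDBD HE1 (-1.03 to 3.50), AF357426 in Sp1ΔDBD/ΔDBD progenitors (-3.61 to 0.086), Rtl1 in WT from Flk1+ cells to HE1 (-4.41 to 0.12), AF357426 in WT from HE2 to progenitors (-3.54 to 0.15) and AF357359 in Sp3-/- from ESC to progenitors (-4.30 to 0.19), each a gene with a sample listed at 0. A lone sample left in a group was assumed to vary like the others. Every such fit of Sp3-/- against WT also called fewer of all genes than the main fit. With depth unknown, no counting error can be attached to low values.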
